A study of Mus musculus with 8 samples.

Results

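The genes described here are 33 genes of glycolysis and of the response to low oxygen, measured in messenger RNA of the proximal large intestine of 8 mice. They were taken by symbol from the table of 17041 genes, and 33 of 33 were found, pyruvate kinase under its older symbol Pkm2. By role, 14 are glycolytic enzymes, 3 govern glucose entry and the fate of pyruvate, 11 are targets of the hypoxia response and 5 sense oxygen or form the hypoxia-inducible factors. All mice were ApoE knockouts, an atherosclerosis-prone strain, born germ-free, colonized by gavage at 8 weeks of age and dissected at 26 weeks. The groups were 3 mice with a core community that makes no butyrate, called core, and 5 mice with the same community and the butyrate producer Roseburia intestinalis (core plus R. intestinalis in the labels, here the R. intestinalis group). Each mouse gave 1 library. Core replicates 1 to 3 carry the numbers 3 to 5 in the sample names. The authors' comparison bears the tag NoC2, so the 3 core mice may be a selection from a larger group. The sample labels neither state such an exclusion nor give a reason for it, and its effect on the group differences was not tested. The ApoE deletion is shared by both groups, and no mouse without bacteria or with its own ApoE was part of the comparison. The labels name no diet, sex, cage or isolator, and mice of 1 group may have lived together. P-values measure the spread between these libraries.

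Glycolysis splits glucose into pyruvate in the cytosol, and lactate dehydrogenase turns pyruvate into lactate when it is not burned in mitochondria. When oxygen is scarce, prolyl hydroxylases of the Egln family stop marking the alpha subunits of the hypoxia-inducible factors (HIF) for destruction through Vhl, and the stabilized factors switch on glucose uptake, most glycolytic enzymes, blood vessel growth and mitophagy genes. The colon surface lies next to an oxygen-free lumen and is one of the tissues where this response is active in health. Colonocytes burn butyrate as a main fuel, which uses up oxygen, and the comparison asks how these genes stand when a butyrate producer is added.

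HIF binds DNA at the core letters ACGTG or GCGTG. Windows from 250 bases before to 50 after each start site (RefSeq, build GRCm38.p6) were found for 30 of the 33 genes. The entries for Bnip3l, Ndrg1 and Epas1 were missing. Searched on both strands, 51.1% of the 45 windows of these genes held ACGTG and 55.6% held GCGTG, against 19.6% and 32.4% of all 32851 windows of that length. CACGTG, which also holds ACGTG on each strand, occurred in 11.1% and 7.2%. Both cores hold the letters CG, the windows were not matched for base content, and genes with several start sites count more than once. Whether the shares differ beyond this was not tested. The stretches below show where the letters stand in genes of 3 of the 4 roles (none is from glucose entry and control), read toward the gene, with each match to either core in capitals and the reverse matches written as CACGT or CACGC. A match is a description of the letters and not a measured binding site.
Hif1a: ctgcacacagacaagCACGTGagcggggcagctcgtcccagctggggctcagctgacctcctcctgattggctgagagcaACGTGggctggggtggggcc
Hk2: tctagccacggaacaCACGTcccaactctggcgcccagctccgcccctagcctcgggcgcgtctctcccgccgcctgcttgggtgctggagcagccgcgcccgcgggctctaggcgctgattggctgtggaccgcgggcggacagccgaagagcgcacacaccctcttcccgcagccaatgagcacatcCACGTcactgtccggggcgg
Pfkl: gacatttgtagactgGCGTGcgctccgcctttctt
Pgk1: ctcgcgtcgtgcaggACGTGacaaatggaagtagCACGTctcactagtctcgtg
Ldha: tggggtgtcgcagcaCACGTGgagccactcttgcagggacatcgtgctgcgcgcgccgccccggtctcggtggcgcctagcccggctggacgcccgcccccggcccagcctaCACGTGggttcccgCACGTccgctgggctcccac
Bnip3: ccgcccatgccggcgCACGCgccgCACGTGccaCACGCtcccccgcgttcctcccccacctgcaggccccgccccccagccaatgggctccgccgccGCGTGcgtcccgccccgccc
Ddit4: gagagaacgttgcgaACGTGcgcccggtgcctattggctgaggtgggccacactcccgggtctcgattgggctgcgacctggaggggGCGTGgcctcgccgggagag
Egln3: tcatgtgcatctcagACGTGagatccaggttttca
The Hif1a stretch (chr12:73907717-73907816, plus strand) holds 3 ACGTG matches, of which 2 are the strands of a CACGTG. The Hk2 stretch (chr6:82774487-82774695, minus strand) holds 2 ACGTG matches and the Pfkl stretch (chr10:78009887-78009921, minus strand) 1 GCGTG. The Pgk1 stretch (chrX:106186935-106186988, plus strand) holds 2 ACGTG matches. The stretch of Ldha (chr7:46845644-46845789, plus strand) holds 5, and that of Bnip3 (chr7:138909522-138909638, minus strand) holds 2 ACGTG and 3 GCGTG matches. The Ddit4 stretch (chr10:59951866-59951972, minus strand) holds 1 match of each, and the Egln3 stretch (chr12:54204084-54204118, minus strand) 1 ACGTG. Only stretches that overlap no annotated exon of their gene in GENCODE M21 are printed. Stretches found in Nt5e, Hk1, Vegfa, Pkm2, Slc2a1 and Pfkp overlap such an exon and are left out. No match was found in the windows of Gpi1, Tpi1 or Vhl.

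Values are the authors' normalized values per gene and library. Estimated depth ran from 4599628 reads in core replicate 1 to 15345326 in R. intestinalis replicate 3, and a value of 50 stood for 31.4 to 109.4 estimated reads. All 33 genes had a mean of at least 10 and were tested. The colon markers Epcam, Krt8 and Muc2 were high in every library, with Epcam from 11501 to 14865. Muc2 and Car1 varied more, from 75617.7 to 243421.5 and from 12235 to 109366. Of 9 markers of the colon epithelium, among them the goblet cell gene Muc2, 8 had positive community differences and 1 a negative one, with a median log2 difference of 0.167. Hoxb13, a homeobox gene of the distal hindgut, ran from 2.16 to 663 across libraries, and the 3 libraries lowest in it were core replicate 3 and R. intestinalis replicates 2 and 4. The labels call every piece proximal large intestine and do not say where along it each was cut, so a slope on Hoxb13 cannot be told apart from a difference in where the piece was taken. Of the markers of other tissues tested, 9 of 9 for smooth muscle, 7 of 7 for fat and 7 of 7 for fibroblasts had negative community differences, as had 5 of 6 for endothelium, 3 of 5 for leukocytes, 2 of 4 for skeletal muscle and 2 of 3 for red blood cells. The summed levels of the first 3 lists ran, core against R. intestinalis, from 136644 to 188256 against 91735 to 161496 for smooth muscle, from 1777 to 4531 against 483 to 2605 for fat, and from 8089.8 to 9260.2 against 4796 to 7190.3 for fibroblasts. In whole tissue, fewer cells of a type and less RNA per cell cannot be told apart. The part of these markers in the community differences below was not tested. Apoe, the knocked-out gene, averaged 15.2 ± 4.92 (SD, n = 3) in core against 20.3 ± 4.29 (SD, n = 5) with R. intestinalis, which checks no group label since every mouse carries the knockout.

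No gene of the set passed the threshold between the communities. With limma (moderated test on log2(value + 1), R. intestinalis minus core), 0 of 33 genes had an adjusted p under 0.05, and neither did any of the 13020 genes tested (0%). The smallest adjusted p among the 33 was 0.588. At an unadjusted p under 0.05 there were 2, Pfkl and Gpi1, both higher with R. intestinalis, beside 4.44% of all genes in that direction, 3.69% in the other and 8.13% in either. Of the 33 genes, 21 lay above 0 and 12 below, with a median log2 difference of 0.084, while 49.6% of all genes tested lay above 0 with a median of -0.003. In 25 of 33 genes (75.8%) the 95% interval lay within a doubling or halving, as it did in 72.9% of all genes tested.

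**Figure D1:**
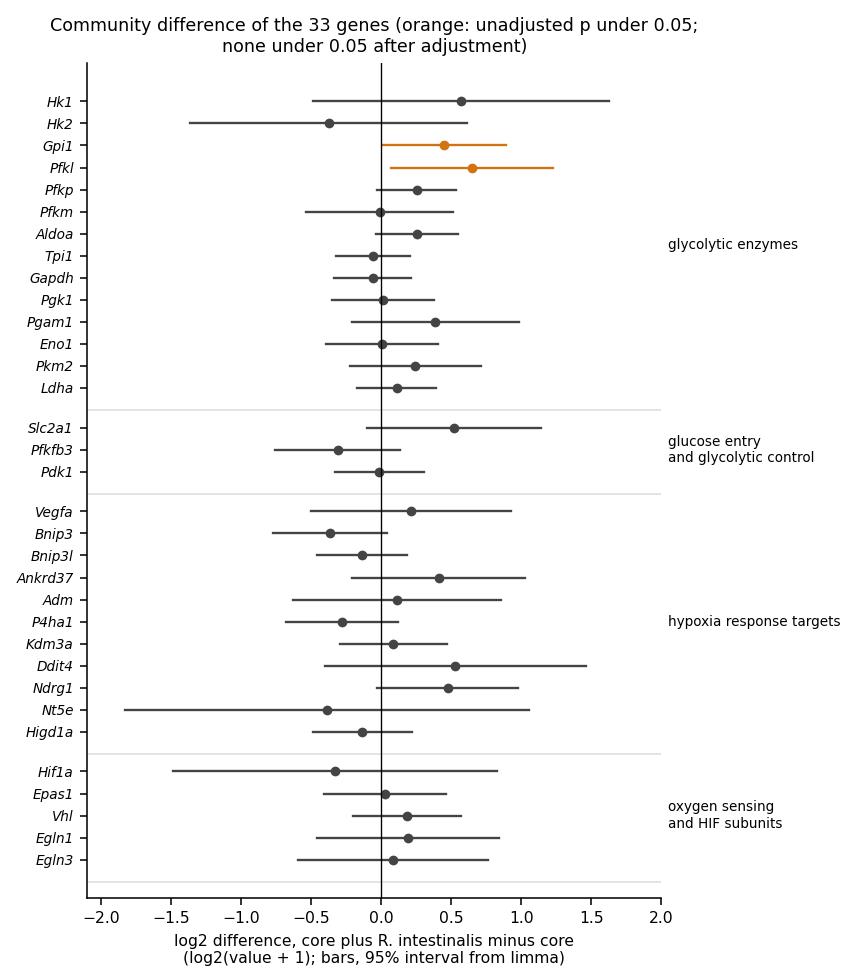
Log2 difference, R. intestinalis minus core, of the 33 genes (points) with the 95% interval from limma (bars), grouped by role. Pfkl (0.64) and Gpi1 (0.45) are the points in orange, with an unadjusted p under 0.05, and Nt5e, Hif1a, Hk1 and Hk2 have the widest intervals.

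Among the glycolytic enzymes, 10 of 14 lay above 0 and 4 below, with a median log2 difference of 0.18. Pfkl, the liver-type phosphofructokinase that commits sugar to glycolysis, read 385, 580.1 and 415 in core replicates 1 to 3, and 1085, 459.9, 768, 567 and 818 in R. intestinalis replicates 1 to 5. R. intestinalis replicate 1 was the highest, and replicates 2 and 4 lay inside the core range. The means were 460.0 ± 105 (SD, n = 3) in core against 739.6 ± 242 (SD, n = 5) with R. intestinalis (log2 difference 0.64, SE 0.26, limma adjusted p = 0.588). Gpi1, glucose-6-phosphate isomerase, read 3614, 4883 and 5298 in core replicates 1 to 3, and 8307, 6338, 6727, 4589.7 and 5649 in R. intestinalis replicates 1 to 5. Again replicate 1 was the highest, and the groups overlapped, with replicate 4 below core replicates 2 and 3. Its means were 4598 ± 877 (SD, n = 3) in core against 6322 ± 1375 (SD, n = 5) with R. intestinalis (log2 difference 0.45, SE 0.20, limma adjusted p = 0.588).

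Aldoa, the aldolase that cuts the 6-carbon sugar, was the 1 gene of the 33 whose groups did not overlap, beside 2.53% of all genes tested in that direction, 3.31% in the other and 5.84% in either. It read 7896, 10161 and 10274 in core replicates 1 to 3, and 11723, 10281, 11701, 11047 and 11179 in R. intestinalis replicates 1 to 5. The gap was narrow, since the highest core value and the lowest R. intestinalis value were 10274 and 10281, and core replicate 1 was the lowest of all 8 (log2 difference 0.25, SE 0.13, limma adjusted p = 0.588). Pfkp, the platelet-type phosphofructokinase, read 1330.2, 1591 and 1306 in core replicates 1 to 3, and 1817, 1458, 1737, 1574 and 1811 in R. intestinalis replicates 1 to 5. The groups overlapped, with core replicate 2 above R. intestinalis replicates 2 and 4 (log2 difference 0.25, SE 0.13, limma adjusted p = 0.588). Pfkm, the muscle-type enzyme, did not share this direction, with 96.8, 115 and 72.3 in core replicates 1 to 3, and 123, 86.3, 108, 67.3 and 86.9 in R. intestinalis replicates 1 to 5 (log2 difference -0.012, 95% interval -0.54 to 0.51).

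The hexokinases, which trap glucose in the cell, varied several-fold between mice. Hk1 read 316, 719 and 277 in core replicates 1 to 3, and 1275, 280.4, 612, 375 and 872 in R. intestinalis replicates 1 to 5, a 4.61-fold span. Hk2 read 456, 661 and 248 in core replicates 1 to 3, and 346, 184, 387, 197 and 738 in R. intestinalis replicates 1 to 5. Hk1 was highest in R. intestinalis replicate 1 and Hk2 in replicate 5, and the groups overlapped for both genes. Their differences were 0.57 for Hk1 (95% interval -0.49 to 1.62) and -0.38 for Hk2 (-1.36 to 0.61) on the log2 scale.

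Most enzymes below the split of the sugar varied less between mice. Gapdh, which makes the first high-energy phosphate, stayed between 27300.2 and 31316 in all 8 libraries (log2 difference -0.063, 95% interval -0.34 to 0.22). Its sign turned to 0.12 under quantile normalization. Tpi1, triose phosphate isomerase, ran from 4821 to 6095 (log2 difference -0.057, 95% interval -0.32 to 0.21), and Ldha, the lactate-forming dehydrogenase, from 7159.6 to 9600.3 (log2 difference 0.11, 95% interval -0.17 to 0.39). For Pgk1, phosphoglycerate kinase, the range was 1568 to 2653 (log2 difference 0.011, 95% interval -0.35 to 0.37). Pgam1, phosphoglycerate mutase, spread more widely, from 600.0 to 1560.4, with R. intestinalis replicate 1 highest (log2 difference 0.39, 95% interval -0.21 to 0.98). Pkm2, pyruvate kinase, ran from 6388 to 11303 (log2 difference 0.24, 95% interval -0.22 to 0.71). Eno1, enolase, ran from 817 to 1355 (log2 difference 0.004, 95% interval -0.40 to 0.40), and the table lists a near-identical enolase gene, Gm5506, at 3682 to 5726, so reads may be divided between them. Gapdh, Pgk1, Ldha, Pgam1 and Aldoa have processed copies in the genome too, and the sources used here do not say how their reads were assigned.

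**Figure D2:**
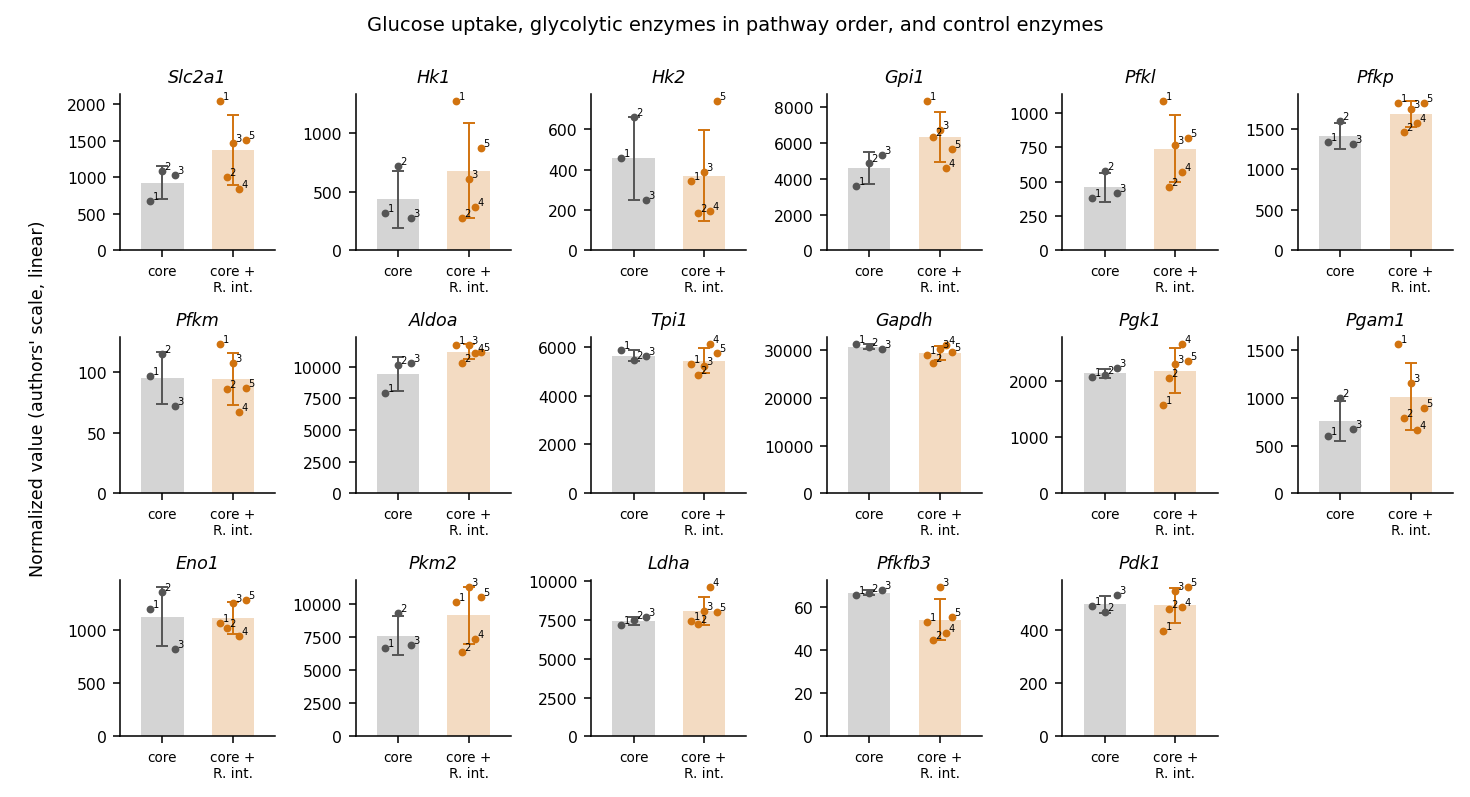
Normalized values per library (points, numbered by replicate) with mean (bars) and SD (error bars) of the glucose transporter Slc2a1, the 14 glycolytic enzymes in pathway order, and the control genes Pfkfb3 and Pdk1, with 3 core and 5 R. intestinalis libraries. Gapdh and Tpi1 are level across the 8 libraries, while Hk1, Pfkl, Pgam1 and Slc2a1 are highest in R. intestinalis replicate 1.

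Extreme values of the enzymes gathered in a few libraries. R. intestinalis replicate 1 was highest in 7 of the 14 glycolytic enzymes, and core replicate 1, the shallowest library, was lowest in 5. In R. intestinalis replicate 1 a rise of 10 percentage points in transcript GC content went with a log2 deviation of 0.56 over all genes, against -0.32 to 0.22 in the other libraries. The median GC content of the 14 glycolytic transcripts was 54.1%, against 49.9% over all genes tested. After a GC correction of each library the median difference of the 14 enzymes was 0.008 in place of 0.18, that of Aldoa was -0.007, that of Gpi1 0.34 (unadjusted p = 0.0657) and that of Pfkl 0.38 (unadjusted p = 0.0207). Without R. intestinalis replicate 1, 0 of the 33 genes had an unadjusted p under 0.05, and likewise without its replicate 3 or without core replicate 1.

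Slc2a1, the glucose transporter Glut1, read 673, 1079 and 1033 in core replicates 1 to 3, and 2038, 997, 1473, 833 and 1511 in R. intestinalis replicates 1 to 5. Replicates 1, 3 and 5 of the R. intestinalis group exceeded every core library, and replicates 2 and 4 did not (log2 difference 0.52, 95% interval -0.099 to 1.14, limma adjusted p = 0.591). Pfkfb3, which makes the activator of phosphofructokinase, read 65.5, 66.4 and 67.6 in core replicates 1 to 3, and 52.9, 44.6, 69.0, 47.9 and 55.2 in R. intestinalis replicates 1 to 5. The 3 core libraries lay close together, and 4 of the 5 others were below them (log2 difference -0.31, 95% interval -0.76 to 0.13). Pdk1, a kinase that restrains the burning of pyruvate in mitochondria, ran from 394 to 561 with overlapping groups (log2 difference -0.015, 95% interval -0.33 to 0.30).

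Of the 11 hypoxia response targets, 6 lay above 0 and 5 below, with a median log2 difference of 0.084. Ndrg1, a stress-induced differentiation gene, read 1077, 1038 and 1677 in core replicates 1 to 3, and 2288, 1973, 1825, 1468 and 1215 in R. intestinalis replicates 1 to 5. It was highest in R. intestinalis replicate 1 and overlapped with core through replicates 4 and 5 (log2 difference 0.47, SE 0.23, limma adjusted p = 0.588). Bnip3, a mitophagy receptor of the outer mitochondrial membrane, read 379, 412 and 289 in core replicates 1 to 3, and 202, 281, 312, 293 and 305 in R. intestinalis replicates 1 to 5. Here replicate 1 was the lowest library, below its own group by a gap larger than the spread of the other 4 (log2 difference -0.37, SE 0.18, limma adjusted p = 0.588). Its relative Bnip3l, with the same role, ran from 763 to 1133 (log2 difference -0.14, 95% interval -0.46 to 0.18).

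None of the other targets differed past the threshold. P4ha1, a collagen prolyl hydroxylase, ran from 194 to 312 (log2 difference -0.28, 95% interval -0.68 to 0.12). Kdm3a, a histone demethylase, ran from 480.3 to 757 (log2 difference 0.084, 95% interval -0.30 to 0.47), and Higd1a, a mitochondrial protein induced by hypoxia, from 270.2 to 442 (log2 difference -0.14, 95% interval -0.49 to 0.22). Ankrd37, a direct HIF target, lay within 58.5 to 58.7 in the 3 core libraries and between 53.7 and 119 in the others (log2 difference 0.41, 95% interval -0.21 to 1.03). Vegfa, the vessel growth factor, read 367, 469 and 242 in core replicates 1 to 3, and 536, 214, 436, 353 and 587 in R. intestinalis replicates 1 to 5. The groups overlapped, with R. intestinalis replicate 2 the lowest and replicate 5 the highest (log2 difference 0.21, 95% interval -0.50 to 0.92). Ddit4, an inhibitor of mTOR signalling, read 79.4, 97.9 and 49.4 in core replicates 1 to 3, and 86.8, 50.7, 128, 99.1 and 231 in R. intestinalis replicates 1 to 5, a 4.69-fold span. Replicate 5 stood highest and the other values overlapped (log2 difference 0.53, 95% interval -0.40 to 1.46). Adm, the vasodilator adrenomedullin, was low at 18.3 to 47.0 (log2 difference 0.12, 95% interval -0.63 to 0.86), a range that rests on few reads.

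Nt5e, the surface enzyme CD73 that makes adenosine, had the widest spread of the 33 genes. It read 484, 634 and 239 in core replicates 1 to 3, and 432, 124, 574, 119 and 908 in R. intestinalis replicates 1 to 5, a 7.61-fold span. The R. intestinalis group holds both the lowest values, in replicates 2 and 4, and the highest, in replicate 5, so the group difference is unresolved (log2 difference -0.39, 95% interval -1.83 to 1.05). Hif1a, the broadly expressed alpha subunit of HIF, showed the same layout. It read 852, 1069 and 366 in core replicates 1 to 3, and 517, 273, 928, 302 and 1283 in R. intestinalis replicates 1 to 5, a 4.70-fold span (log2 difference -0.33, 95% interval -1.49 to 0.83). Both groups hold high and low mice, and core replicate 3 joins R. intestinalis replicates 2 and 4 at the bottom in both genes.

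Epas1, the alpha subunit HIF-2 alpha, was narrower, with 539, 523 and 410.2 in core replicates 1 to 3, and 629, 393, 473, 404 and 633 in R. intestinalis replicates 1 to 5 (log2 difference 0.025, 95% interval -0.41 to 0.46). Vhl, the ligase subunit that binds hydroxylated HIF, ran from 84.1 to 133 (log2 difference 0.18, 95% interval -0.20 to 0.57). Egln1, the main oxygen-sensing hydroxylase, read 176, 231 and 108 in core replicates 1 to 3, and 214, 122, 157, 210.1 and 266 in R. intestinalis replicates 1 to 5 (log2 difference 0.19, 95% interval -0.46 to 0.84). Egln3, the hydroxylase that HIF itself induces, read 133, 274 and 138 in core replicates 1 to 3, and 169.6, 107, 233, 231 and 202 in R. intestinalis replicates 1 to 5 (log2 difference 0.083, 95% interval -0.60 to 0.76). In these 5 sensors and subunits 4 differences lay above 0, and each interval includes 0.

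**Figure D3:**
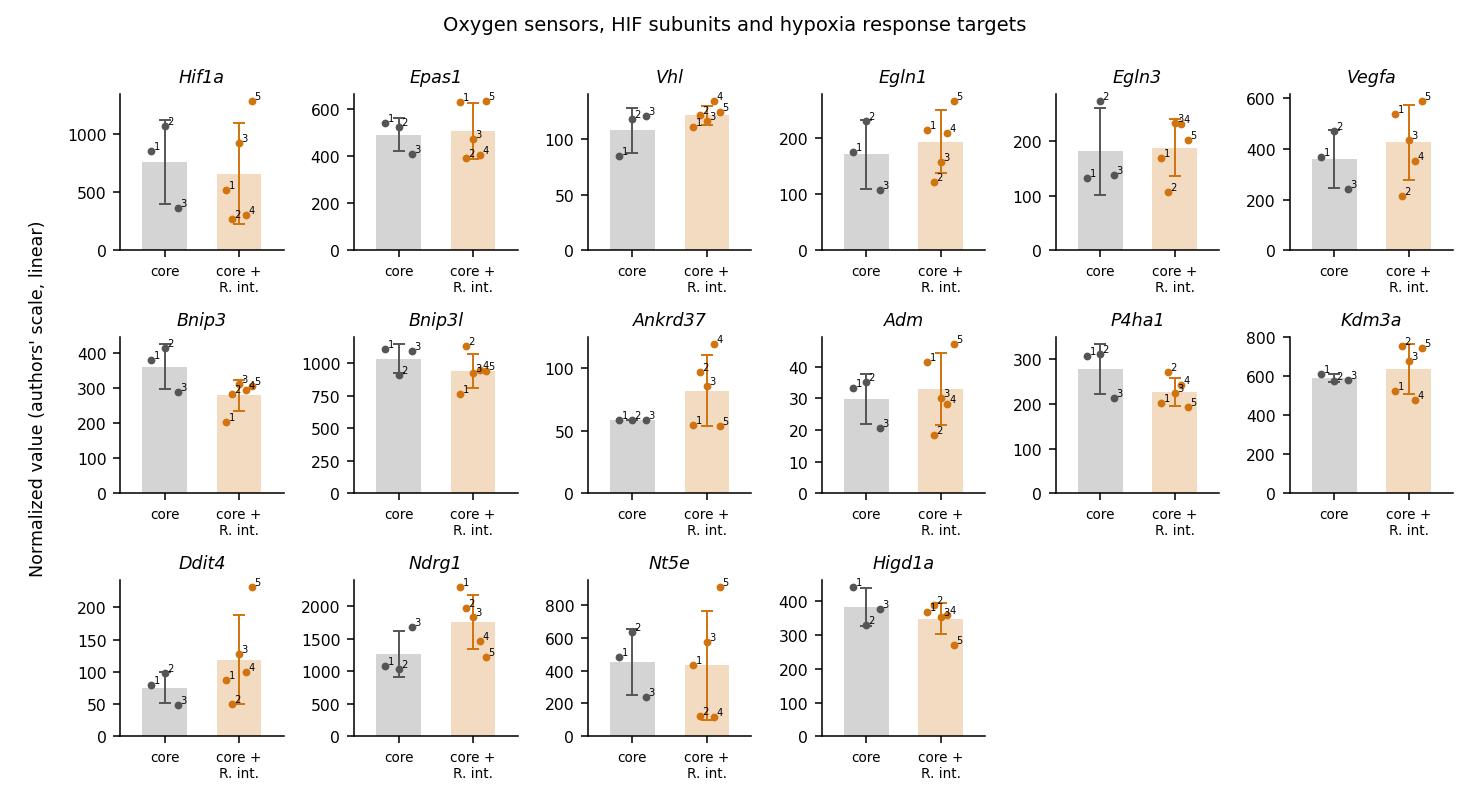
Normalized values per library (points, numbered by replicate) with mean (bars) and SD (error bars) of the 5 oxygen sensors and HIF subunits and the 11 hypoxia response targets, with 3 core and 5 R. intestinalis libraries. Hif1a and Nt5e are lowest in core replicate 3 and R. intestinalis replicates 2 and 4.

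Ratios of related genes within a library do not depend on how the library was scaled, and 7 were compared by a two-sided exact permutation test over 56 splits, adjusted over the 7 ratios. The smallest p this design allows is 0.0179. The ratios were not corrected for GC content, which differed within pairs. It was 51.88% for Hk2 against 56.38% for Hk1, and 48.88% for Pfkp against 57.05% for Pfkl. The part of GC content in the ratios was not tested. The value of Hk2 over that of Hk1 read 1.44, 0.919 and 0.896 in core replicates 1 to 3, and 0.271, 0.658, 0.633, 0.525 and 0.846 in R. intestinalis replicates 1 to 5. All 5 R. intestinalis libraries were below all 3 core libraries, with mean ratios of 1.09 ± 0.309 (SD) in core and 0.587 ± 0.211 (SD) in R. intestinalis. The difference was -0.95 on the log2 scale (exact p = 0.0536, adjusted 0.188). Pfkm over Pfkl averaged 0.208 ± 0.0396 in core and 0.133 ± 0.0330 with R. intestinalis (exact p = 0.0536, adjusted 0.188), with the groups overlapping in replicate 2.

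Ldha over Ldhb, the dehydrogenase form that favours pyruvate, read 12.1, 13.2 and 12.3 in core replicates 1 to 3, and 14.8, 11.5, 17.4, 18.2 and 24.9 in R. intestinalis replicates 1 to 5. The 3 core libraries lay close together, while 4 of the 5 others were above them (exact p = 0.143, adjusted 0.312). Pfkp over Pfkl differed by -0.39 on the log2 scale (exact p = 0.179, adjusted 0.312) and Bnip3 over Bnip3l by -0.23 (exact p = 0.304, adjusted 0.425). For Epas1 over Hif1a (0.36, exact p = 0.482) and Egln3 over Egln1 (-0.11, exact p = 0.768) the groups overlapped widely. None of the 7 ratios passed the threshold.

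**Figure D4:**
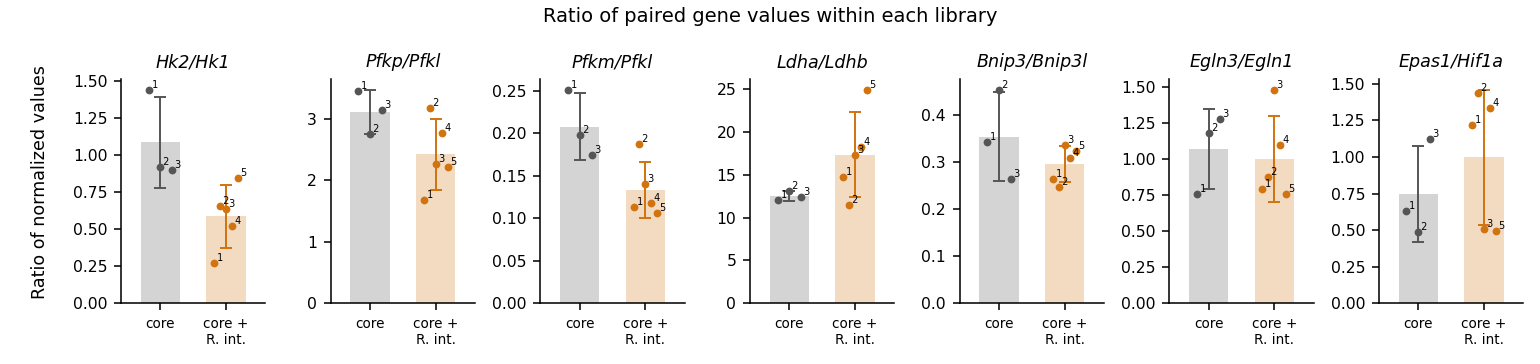
Ratio of the normalized values of 2 related genes within each library (points, numbered by replicate) with mean (bars) and SD (error bars), with 3 core and 5 R. intestinalis libraries. Hk2 over Hk1 is the ratio of the 7 in which the groups do not overlap.

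Several of the genes that differed most between mice were ordered like Hoxb13. This comparison was chosen after the values were seen. A limma fit over 13019 genes with the community and log2(Hoxb13 + 1) together gave each gene a slope, the log2 change per doubling of Hoxb13. In that fit 6 of the 33 genes rose with Hoxb13 at an adjusted p under 0.05 and 0 fell, beside 3.06% and 1.44% of all genes tested (4.51% in either direction). They were Nt5e (slope 0.37, SE 0.032, limma adjusted p = 0.000171), Hif1a (0.28, SE 0.038, adjusted p = 0.0033), Hk2 (0.23, SE 0.036, adjusted p = 0.00677), Vegfa (0.16, adjusted p = 0.0116), Hk1 (0.23, adjusted p = 0.0206) and Pkm2 (0.10, adjusted p = 0.0259). Hoxb13 itself read 141, 439 and 25.3 in core replicates 1 to 3, and 247, 2.16, 394, 8.26 and 663 in R. intestinalis replicates 1 to 5. The 3 libraries at its bottom, core replicate 3 and R. intestinalis replicates 2 and 4, were the 3 lowest for Hif1a, Nt5e and Hk2, and replicate 5 of R. intestinalis was the highest for Hoxb13 and for all 3 genes.

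The slopes of Nt5e, Hif1a and Hk2 passed the threshold without any single library, with ranges of 0.34 to 0.42, 0.25 to 0.33 and 0.19 to 0.28. The slopes of Vegfa, Hk1 and Pkm2 did so in 6, 3 and 3 of the 8 fits with 1 library left out. Without the 2 libraries farthest from the median of Hoxb13, R. intestinalis replicates 2 and 4, the slopes were 0.40 for Nt5e, 0.45 for Hif1a and 0.39 for Hk2, and 0 of the 33 genes passed (limma adjusted p = 0.0981, 0.109 and 0.143). These 3 calls were lost with 6 libraries in the fit, while their slopes were no smaller. After the GC correction, Pkm2 did not pass (slope 0.031, limma adjusted p = 0.55), and the other 5 did. Pfkl (slope 0.12, limma adjusted p = 0.0505) and Ddit4 (0.19, limma adjusted p = 0.0511) came close to the threshold. Gapdh (0.007), Tpi1 (0.004) and Ldha (-0.007) had slopes near 0, and Epas1 had one of 0.083 (limma adjusted p = 0.0794).

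**Figure D5:**
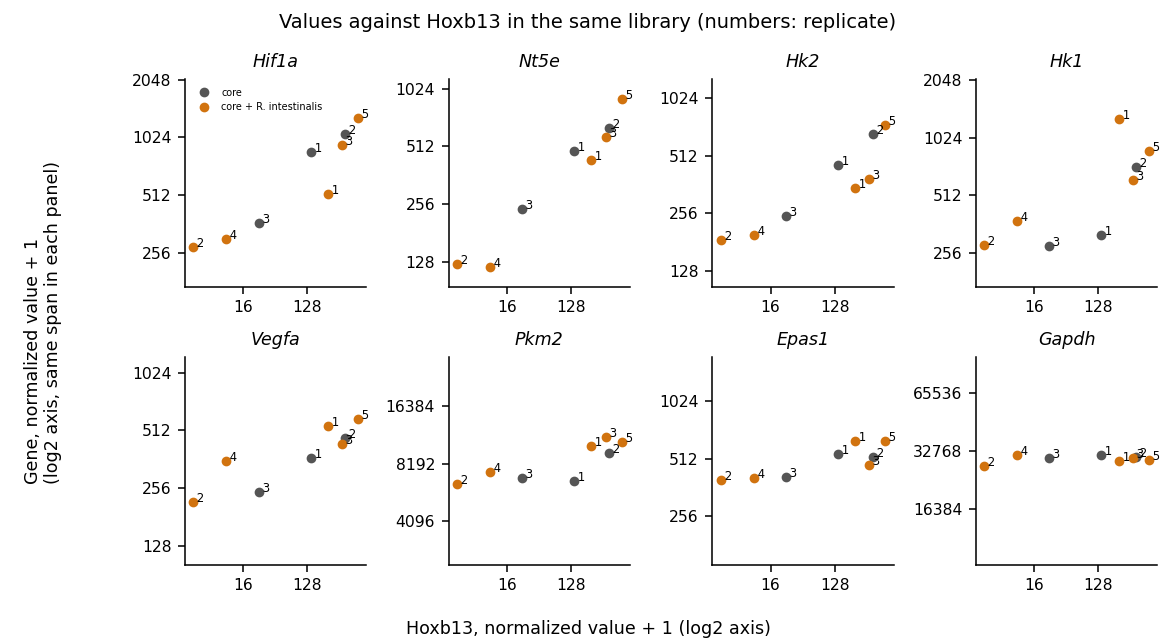
Normalized value + 1 of 8 genes (vertical, log2 axis with the same span in each panel) against that of Hoxb13 in the same library (horizontal, log2 axis), with points numbered by replicate, with core in grey (n = 3) and R. intestinalis in orange (n = 5). Nt5e, Hif1a and Hk2 climb with Hoxb13 across both groups, while Gapdh is level.

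Colonocyte genes had slopes of both signs. Slc26a3, a chloride exchanger, and Car4, a membrane carbonic anhydrase, rose with Hoxb13 (slopes 0.30 and 0.20, limma adjusted p = 0.00125 and 0.00232), and Car1, a cytosolic carbonic anhydrase, fell (-0.26, limma adjusted p = 0.0335). With 1 library left out, Slc26a3 and Car4 passed in 8 of 8 fits and Car1 in 3 of 8 (largest adjusted p = 0.117). Of the other markers of position along the large intestine, the bile acid transporter Slc10a2 (slope -0.55, limma adjusted p = 0.044), the glycosyltransferase B4galnt2 (-0.19, limma adjusted p = 0.0227) and the homeobox gene Hoxd10 (-0.61, limma adjusted p = 0.0469) fell, and passed in 2, 3 and 2 of those 8 fits. The homeobox gene Hoxd13 had a slope of 0.45 (limma adjusted p = 0.117). Among the markers of smooth muscle, skeletal muscle, fat, fibroblasts, endothelium, red blood cells and leukocytes, 0 had a slope past the threshold. Their part in the slopes of Hif1a, Nt5e and Hk2 was not tested.

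With Hoxb13 held in the fit, 7 genes had an unadjusted p under 0.05 for the community. Pfkl differed by 0.73 (SE 0.17), Hk1 by 0.74 (SE 0.26), Slc2a1 by 0.60 (SE 0.21), Gpi1 by 0.47 (SE 0.19), Pkm2 by 0.32 (SE 0.12), Pfkp by 0.28 (SE 0.10) and Ddit4 by 0.67 (SE 0.27). All 7 were higher with R. intestinalis, beside 10.7% of all genes tested in that direction and 18.4% in either. The smallest limma adjusted p among the 33 was 0.197, so none passed. Hif1a differed by -0.13 (SE 0.21), Nt5e by -0.12 (SE 0.18) and Hk2 by -0.21 (SE 0.20). With the GC correction and without Hoxb13, the differences were 0.38 for Pfkl, 0.33 for Hk1, 0.39 for Slc2a1 and 0.34 for Gpi1. They were -0.045 for Pkm2, 0.28 for Pfkp and 0.23 for Ddit4. No community difference was taken from a fit with both Hoxb13 and the GC correction.

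Further genes of the same pathways gave 0 calls at the threshold as well. At an unadjusted p under 0.05, the 29 tested genes of glucose handling beyond the 33 gave 4 higher and 0 lower, beside 4.44% and 3.69% of all genes tested. Hkdc1, a further hexokinase-like gene, averaged 224 ± 137 (SD, n = 3) in core against 504 ± 192 (SD, n = 5) with R. intestinalis (log2 difference 1.21, SE 0.44), and Slc2a5, the fructose transporter, 57.5 ± 40.8 (SD, n = 3) in core against 111 ± 30.3 (SD, n = 5) with R. intestinalis (log2 difference 1.10, SE 0.39). Aldoc, an aldolase, averaged 144 ± 26.4 (SD, n = 3) in core against 212 ± 43.9 (SD, n = 5) with R. intestinalis (log2 difference 0.55), and Pck1, an enzyme of glucose synthesis, 923 ± 46.8 (SD, n = 3) in core against 1251 ± 228 (SD, n = 5) with R. intestinalis (log2 difference 0.42). Only for Pck1 did the ranges of the groups not overlap. The limma adjusted p was 0.588 for each of these 4 genes.

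Of the 44 tested further genes of the hypoxia response and oxygen sensing, 4 were higher and 3 lower at an unadjusted p under 0.05, beside 4.44% and 3.69% of all genes tested. The groups did not overlap in 1 gene that was higher and 4 that were lower, beside 2.53% and 3.31% of all genes tested. Car9, a carbonic anhydrase and a classical HIF target, averaged 215 ± 28.1 (SD, n = 3) in core against 373 ± 98.8 (SD, n = 5) with R. intestinalis (log2 difference 0.76, SE 0.21), with groups that did not overlap. Cited2, a HIF-induced inhibitor of HIF, averaged 124 ± 26.4 (SD, n = 3) in core against 218 ± 71.1 (SD, n = 5) with R. intestinalis (log2 difference 0.77). Lox and Loxl2, which cross-link collagen, had negative differences, at 28.2 ± 3.47 (SD, n = 3) in core against 12.0 ± 3.07 (SD, n = 5) with R. intestinalis (log2 difference -1.20) and 390.4 ± 63.0 (SD, n = 3) in core against 251 ± 61.3 (SD, n = 5) with R. intestinalis (log2 difference -0.66). Neither pair of ranges overlapped. The limma adjusted p was 0.588 for all 4 genes. The summed level of 7 fibroblast markers, given above, was higher in every core library, and its part in the values of Lox and Loxl2 was not tested. Of the 9 hypoxia targets described in the gut barrier, 6 were tested and 1, the drug exporter Abcb1a, had an unadjusted p under 0.05 (5519.9 ± 1192 (SD, n = 3) in core against 7790.2 ± 1737 (SD, n = 5) with R. intestinalis, limma adjusted p = 0.588). Cldn1 (log2 difference -0.65), Abcb1b (log2 difference 0.33) and Ckb (log2 difference 0.14) of that list had overlapping groups.

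Some of these further genes followed Hoxb13 too. Of the 29 tested genes of glucose handling, 4 rose and 2 fell at the threshold, beside 3.06% and 1.44% of all genes tested. They include Pdp2 (slope 0.179, limma adjusted p = 0.0483) and Pgm2 (-0.107, limma adjusted p = 0.044), which each passed in 2 of the 8 fits with 1 library left out. Eno3, the muscle-type enolase, read 144, 458 and 86.1 in core replicates 1 to 3, and 165, 45.3, 527, 95.6 and 570.1 in R. intestinalis replicates 1 to 5, and rose with a slope of 0.44 (limma adjusted p = 0.0027), steeper than any of the 33. The lactate transporters Slc16a3 (slope 0.36, limma adjusted p = 0.0305) and Slc16a1 (0.12, limma adjusted p = 0.0353) rose as well, while Pdk4, a kinase of the Pdk1 family, fell (-0.17, limma adjusted p = 0.0305). Among the further hypoxia genes, 0 rose and 3 fell, beside 3.06% and 1.44% of all genes tested, among them Fam162a, a HIF-induced mitochondrial gene (-0.16, limma adjusted p = 0.00627). Eno3 and Fam162a passed in all 8 fits with 1 library left out, while Slc16a3, Slc16a1 and Pdk4 passed in 3 of 8 each (largest adjusted p = 0.261, 0.317 and 0.331). Without the 2 libraries farthest from the median of Hoxb13, none of these 5 genes passed, and the slope of Slc16a1 was 0.043. After the GC correction Slc16a3 (limma adjusted p = 0.0577) and Pgm2 (limma adjusted p = 0.0584) did not pass. Slopes of HIF targets had both signs, with Ankrd37 at -0.096 (limma adjusted p = 0.178) beside Vegfa at 0.16. These genes were singled out after their slopes were seen.

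Levels of different genes can be set beside each other only per length of transcript, here the longest coding transcript in GENCODE M21, as mean value per kilobase over the 8 libraries. On that scale Gapdh stood at 21109, Aldoa at 6799.7, Ldha at 4316, Pkm2 at 3532 and Tpi1 at 3426, and the hexokinases at 138 (Hk1) and 72.9 (Hk2). Among the phosphofructokinases Pfkp stood at 381, Pfkl at 170.2 and Pfkm at 32.8. Of the HIF subunits, Hif1a stood at 148 and Epas1 at 90.7 on average, but Epas1 was above Hif1a in 3 of the 8 libraries, R. intestinalis replicates 1, 2 and 4. The transcript lengths behind the values are unknown here, so these orders are approximate.

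The authors' own comparison called none of the 33 genes. In the authors' deposited table the highest posterior probability of differential expression among them was 0.06, for Pfkp, with a posterior fold of 1.19, and 82 of 17041 genes (0.481%) reached 0.95 and 0.616% reached 0.90.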

How the data were processed

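Messenger RNA libraries of 8 mice (3 core, 5 core plus R. intestinalis) were compared. Bowtie2, RSEM 1.2.23 and the build mm9 are listed in the submitters' processing notes without their roles. Annotation and comparison tool: not given in the sources used here. Values in the deposited table are a normalized expression signal, in which, as the values show, the authors divided estimated reads by 1 factor per library. Depth was estimated as each library's sum over the value of 1 read. Only 79.8% to 84.2% of its values under 30 were whole multiples of that value (tolerance 0.05 of a read), and no count test was run. The deposited table also holds a posterior probability, used as a score, and a fold change as a linear ratio of the group means.

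Fits used log2(value + 1), a scale on which low genes change less than they should, for 13020 genes with a mean of at least 10, with limma 3.58.1 in R 4.3.3 (mean-variance trend, Benjamini-Hochberg adjustment, threshold 0.05), tested on simulated data. The same fit with log2(Hoxb13 + 1) as a covariate was added after seeing the data. The members and lists were chosen with earlier results of these data known. The rule for giving every library value was an unadjusted p under 0.05, groups that do not overlap, the 2 smallest p of each role or a place in a ratio. Vhl, Ldha and Bnip3l met it but are given as ranges, while Vegfa, Ddit4 and Nt5e are given by library without meeting it. Of each further list the 4 smallest p are named. Alternatives were other pseudocounts, filters, scalings, each library left out, a replicate block, no trend, and, chosen after seeing the data, a GC correction (lowess, span 0.3).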

Additional observations from a re-analysis of the deposited data

Results flagged for a closer look

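In the 5 R. intestinalis libraries, 2 of 52 values examined had a replicate standing apart from the others by more than the 95% critical gap for 5 samples, and chance flags about 1 in 20 such groups. Bnip3 was 202.3 in replicate 1 against 281 to 312 in the others (gap 0.724 of the range). Lox was 6.68 in replicate 1 against 12.3 to 14.2 (gap 0.755). Replicate 1 is also the library in which values rose most with GC content.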

How the results depend on the processing

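The precision is set by 3 against 5 libraries and, for genes as low as Adm, by depth. Of the 33 genes, 19 kept the sign of their community difference in 19 alternatives and 14 did not, and the smallest limma adjusted p of any was 0.197. The number of the 33 with an unadjusted p under 0.05 was 4 under quantile normalization, 1 without the trend, 1 after GC correction, 7 with Hoxb13 as a covariate and 6 without the 3 libraries lowest in Hoxb13, and 0 to 4 with 1 library left out. Over all genes it was 2400 with Hoxb13 as a covariate, 1956 without those 3 libraries, and 269 (without core replicate 1) to 1902 (without R. intestinalis replicate 2) with 1 left out. At an adjusted p under 0.05, leaving out 1 library gave 0 to 1 genes, the 1 without core replicate 1.

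Replicate numbers, taken from the sample titles, did not pair the samples (correlations of same-numbered deviations -0.12, -0.53 and -0.07). The numbers in the sample names match core replicates 1, 2 and 3 with R. intestinalis replicates 3, 4 and 5 instead. Those correlations were -0.01, -0.41 and -0.49. With a replicate block on the title numbers, 395 genes and 2 of the 33 had an unadjusted p under 0.05 and 0 an adjusted one, and Pfkm (0.167), Pgk1 (-0.132), Adm (-0.024), Egln1 (-0.033) and Egln3 (-0.084) changed sign.

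After GC correction the median of the glycolytic enzymes was 0.008, and Aldoa (-0.007), Eno1 (-0.275), Pkm2 (-0.045), Pdk1 (0.071), Bnip3l (0.027), Epas1 (-0.05), Egln1 (-0.028) and Ckb (-0.209) changed sign. So did Gapdh (0.123) under quantile normalization and Eno1 (-0.001) under the trimmed mean of M values. Pfkm (0.04) and Pgk1 (-0.00026) did so with Hoxb13 as a covariate. Without the 3 libraries lowest in Hoxb13, Pgk1 (-0.036), Eno1 (-0.094), Pdk1 (0.048), Nt5e (0.134) and the log2 ratio of Egln3 to Egln1 (0.023) did. Scaling moved the median of all genes from -0.003 to at most -0.034. The causes were not tested.

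With 1 library left out, the median of the hypoxia targets ran from -0.098 to 0.153, and Pfkm from -0.191 to 0.139, Pgk1 from -0.065 to 0.125, Eno1 from -0.209 to 0.155, Pdk1 from -0.064 to 0.063, Vegfa from -0.048 to 0.435, Adm from -0.118 to 0.301, Epas1 from -0.099 to 0.108, Egln1 from -0.108 to 0.437, Egln3 from -0.097 to 0.419, Ckb from -0.069 to 0.394 and the log2 ratio of Egln3 to Egln1 from -0.342 to 0.035. The number of slopes on Hoxb13 that passed ran from 3 (without R. intestinalis replicate 2 or 5) to 9, and was 0 without the 2 libraries farthest from the Hoxb13 median.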
